A study of Homo sapiens with 26 samples.

Results

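Solute carriers are the large set of membrane transporters that share the symbol stem SLC and move amino acids, sugars, nucleotides, ions, metals and other small molecules across membranes. The SLC25 family, most of which sits in the inner mitochondrial membrane, is left aside here. The members described here were chosen by name and depth: protein-coding genes with an SLC symbol outside SLC25 and at least 64 coding-sequence ribosome footprints in both total inputs of the cell line with the ER bait. Of 325 such symbols in the annotation, 310 had an entry of their own, 15 stood only in entries merged with other genes, and 217 fell below the minimum, 105 of them with no footprint in either library. The 93 members are 93 of the 7381 genes over that minimum. Just inside the minimum was SLC39A8, a metal importer, with 161 and 69.2 footprints, and just outside was SLC36A1, an amino acid transporter of lysosomes, with 163 and 63.5. For 3 members the symbol records a neighbour or partner of a transporter and not a transporter: SLC4A1AP (kanadaptin, an adaptor protein), SLC7A6OS (a protein encoded opposite SLC7A6) and SLC2A4RG (a transcription factor named for the glucose transporter gene it regulates). The other 90 are called transporters below, including SLC3A2, which is a partner chain of transporters.

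Most polytopic membrane proteins of the plasma membrane, Golgi, lysosome and endosome are made at the endoplasmic reticulum: as a hydrophobic segment leaves the ribosome, the signal recognition particle brings the translating ribosome to the Sec61 channel, which lets the segments into the membrane. Nuclear-encoded proteins of the mitochondrial inner membrane, by contrast, are made on cytosolic ribosomes, some of them at the outer mitochondrial membrane. They enter through the mitochondrial import machinery. SLC symbols cover both kinds, since a few families outside SLC25 also have mitochondrial members.

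The series measured where ribosomes translate with LOCL-TL, in which a light-activated biotin ligase (LOV-BirA) tags nearby ribosomes through an Avi tag on the ribosomal protein RPL29. The cells were HEK293T, a line from human embryonic kidney, with the tag on their own RPL29, and LOV-BirA was placed on the ER (Sec61β), on the outer mitochondrial membrane (OMM, by the OMP25 tail anchor) or in the cytosol. For each of these 3 locations, ribosomes of the total input and of the streptavidin pulldown were profiled in 2 replicates, 12 libraries in all. RNA-seq of 14 libraries used the OMM bait: wild-type (WT) cells with a negative control guide RNA, AKAP1 knockout cells and LARP4 knockout cells, each with 2 replicates of input and pulldown, and cells without cycloheximide (CHX), an inhibitor of translation elongation, with 1 of each. By the paper's general protocol, the ribosome profiling cells were given CHX shortly before the light and biotin pulse. The same was assumed for the RNA-seq cells not labelled as lacking CHX. The sample titles do not state the treatment in either case.

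The ligase came from a lentivirus, driven by the SFFV promoter at the ER and by EF1α elsewhere, in sorted polyclonal lines, whereas each knockout was 1 monoclonal line. A clone's own differences and the loss of its gene cannot be told apart. The labels do not say that replicates were separate cultures, although the paper calls those of the OMM ribosome profiling biological replicates. P-values therefore measure the spread between these samples, which may be technical where neither source says otherwise. Coding-sequence footprints per library ranged from 1025114 in an OMM pulldown to 19539527 in an ER pulldown, and the other OMM pulldown held 2506515, so OMM values are the least precise. RNA-seq libraries held 38347615 to 100840544 counts. VIM, KRT18, KRT8, NEFM and PAX2, genes expected in HEK293T, were detected in every RNA-seq input. The absent-type markers PTPRC, CD3E and ALB stayed at or below 0.165 CPM (counts scaled to the library total) in every RNA-seq library. In the knockout inputs the targeted mRNAs were lower but present: AKAP1 at 32.2 and 20.3 CPM against 115 and 119 in WT, and LARP4 at 79.3 and 74.0 against 225 and 231. The paper reports that its knockout clones were screened by Western blot for absence of the AKAP1 and LARP4 proteins.

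Translation of the solute carriers was strongly concentrated at the ER. Enrichment is the log2 ratio of pulldown to matched total input, each in CPM of its own library, and enriched means a value above 0 with an adjusted p below 0.05. Of the 93 members, 89 were enriched at the ER and 3 were depleted, against 19.8% of all 7381 genes enriched and 72% depleted. The members' median was 1.83 and the median of all genes was -0.68. All 90 transporters lay above 0 in both lysates, and 42 members (45.2%) fell among the 738 genes with the highest ER values. The depth of the general decline depends on the scale: with TMM scaling the median of all genes moved to -0.03 and the members' median to 2.47, so the distance between them changed little, and the counts became 90 enriched and 1 depleted.

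**Figure D1:**
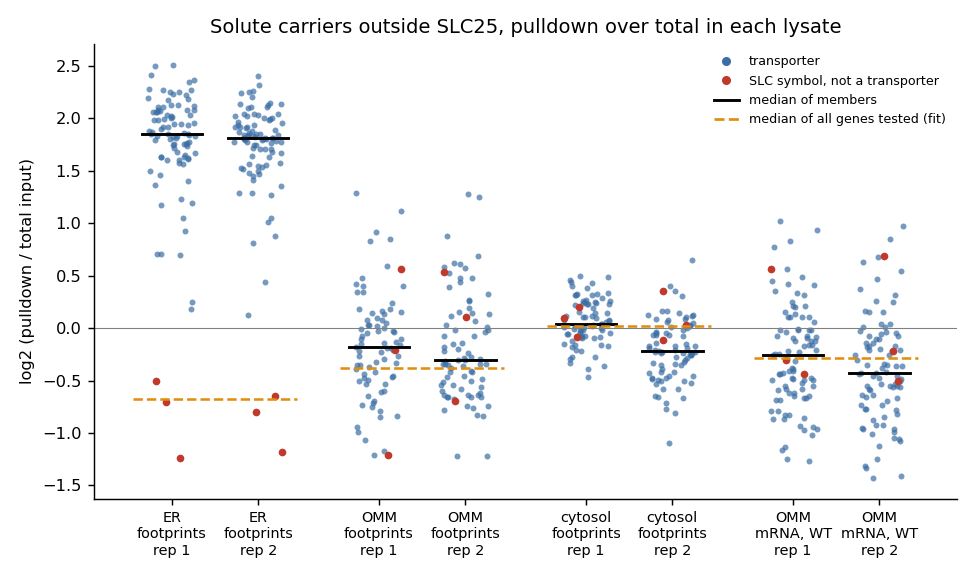
Log2 ratio of pulldown to total input (vertical axis) for every member tested, in each of 2 replicate lysates per location, for footprints at the ER, OMM and cytosol and for mRNA at the OMM in WT. Each point is 1 gene, black bars are medians of the members and dashed lines are medians of the fitted values of all genes tested. The members' ER medians were 1.85 and 1.81, and the 3 members that are no transporters (red) lay below 0 at the ER in both lysates.

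The ER values reproduced closely between lysates. Across members the 2 lysates gave Pearson's r = 0.94 and Spearman's rho = 0.78 (93 genes, a description across genes that are not independent), and the SD of the difference between lysates was 0.22. At the OMM the same quantities were 0.64, 0.58 and 0.43 over 81 members, and in the cytosol 0.36, 0.32 and 0.30 over 81.

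Every functional class of transporter was enriched, with similar medians. All 16 amino acid transporters were enriched (median 1.796, range 0.88 to 2.11). The most abundant of them was SLC1A5, the glutamine carrier ASCT2, which had 450 and 540 CPM in the 2 ER inputs and 2151 and 2099 in the pulldowns. SLC7A5, the leucine transporter LAT1, and SLC3A2, its single-span partner chain, differed: 2.03 for the former and 1.41 for the latter. The weakest amino acid transporter was SLC38A2 (SNAT2, which cells make more of when amino acids run short), at 0.70 and 1.05 in the 2 lysates.

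All 16 carriers of inorganic ions were enriched (median 1.804, range 0.31 to 2.17), and the lowest of them was SLC4A7, a sodium bicarbonate cotransporter. Of 17 metal carriers, 16 were enriched (median 1.85), among them the zinc importer SLC39A10 at 2.30 and the Golgi zinc carrier SLC30A5 at 2.17. The 12 members of SLC35, the nucleotide sugar transporters of ER and Golgi and their relatives, were all enriched within a range of 1.45 to 2.30. SLC35B2, which brings the sulfate donor PAPS into the Golgi, stood at the top of that class.

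The 8 sugar carriers had the lowest class median, 1.64, and all were enriched; SLC2A1, the glucose transporter GLUT1, had 1.78. The 21 carriers of the other families, including nucleosides, vitamins, monocarboxylates, fatty acids, choline and bile acid relatives, were all enriched with a median of 1.98. The 5 highest ER values of all members were those of SLC44A2 at 2.34, SLC35B2 at 2.30, SLC39A10 at 2.30, SLC46A1 at 2.26 and SLC46A3 at 2.22. SLC44A2 is a choline transporter-like protein, SLC46A1 the proton-coupled folate transporter and SLC46A3 a carrier of lysosomes. SLC44A2 rested on 12.9 and 16.6 CPM in the ER inputs and 73.1 and 72.9 in the pulldowns, so both pulldowns lay far above both inputs.

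ER enrichment had little relation to the level of translation. In the ER inputs the members' mean RPKM ranged from 1.32 to 224 with a median of 10.6, and its log2 had Pearson's r = -0.20 with ER enrichment over the 90 transporters. On this per-length scale the leading transporters were SLC16A1 (the lactate and pyruvate carrier MCT1) at 224, SLC1A5 at 140, SLC38A2 at 128 and SLC50A1 at 107, although the values of SLC38A2 and SLC50A1 come from short counted stretches, as given below. SLC16A1 rose from 584 and 893 CPM in the inputs to 2204 and 3112 in the pulldowns.

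Other multi-span proteins gave a similar picture. A hydrophobic window was defined as 19 residues whose Kyte-Doolittle hydropathy averaged 1.6 or more, and 320 further genes with 4 or more such windows in the main protein had a median of 1.79, with 292 enriched. The 25 SLC25 genes over the same minimum counted 2 enriched and 15 depleted, around a median of -0.43. The transporters' median differed little with the place of the first hydrophobic window. It was 1.91 for the 45 transporters with the first window starting in residues 1 to 50, 1.79 for the 33 with it at 51 to 150, and 1.88 for the 12 with it after 150. Of those 12, 11 were enriched and SLC30A9 was not. Across the 90 transporters, the start of that window had Pearson's r = -0.27 and Spearman's rho = -0.15 with the ER value.

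The 4 members that were not enriched at the ER were the 3 symbols that are no transporters and SLC30A9. SLC4A1AP (chromosome 2, 27663426 to 27695366, GRCh38) had 167 and 139 CPM in the ER inputs and 70.8 and 61.4 in the pulldowns, an ER value of -1.21 ± 0.11 (SE, n = 2, adjusted p = 1.03e-08). Its 742 residues hold no hydrophobic window. At the OMM it was also depleted, at -0.90 ± 0.13 (adjusted p = 2.05e-05), so it was below its input at both membranes.

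SLC7A6OS (chromosome 16, 68284503 to 68310946) fell from 42.3 and 34.6 CPM to 26.01 and 19.8 at the ER, a value of -0.74 ± 0.13 (adjusted p = 4.50e-05). It overlaps SLC7A6 on the opposite strand. SLC2A4RG (chromosome 20, 63739776 to 63744050) had 34.9 and 36.4 CPM in the inputs and 24.6 and 23.3 in the pulldowns, a value of -0.57 ± 0.13 (adjusted p = 0.000494). Both values lay close to the median of all genes, and their calls depend on the scale: with TMM scaling SLC7A6OS had -0.10 (adjusted p = 0.551) and SLC2A4RG had 0.08 (adjusted p = 0.610). Neither protein holds a hydrophobic window.

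SLC30A9 was the one transporter not called. It belongs to the zinc carrier family SLC30 and is known as a zinc carrier of mitochondria. The gene lies at 41990502 to 42090461 on chromosome 4, and its 568-residue protein has its first hydrophobic window at residue 238. The ER inputs held 24.9 and 30.8 CPM and the pulldowns 29.6 and 33.6, so each pulldown lay slightly above its own input and the 2 groups overlapped. The ER value was 0.19 ± 0.13 (adjusted p = 0.176). With TMM scaling it became 0.84 (adjusted p = 6.41e-05), with DESeq2 0.80, and on the scale of all mapped reads 0.48, and it was then called, so the call turns on the scale. On each of these 3 scales it stayed below SLC4A7, the next transporter.

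At the OMM, SLC30A9 was enriched: inputs of 24.7 and 28.6 rose to 37.1 and 37.5 CPM, a value of 0.47 ± 0.18 (adjusted p = 0.0326). The call was lost whichever OMM replicate was left out (adjusted p = 0.163 without replicate 1 and 0.116 without replicate 2) and without pairing of pulldown and input (0.234). The difference between its ER and OMM values was -0.27 (adjusted p = 0.326), so the 2 locations were not told apart. In the cytosol it had 0.10 (adjusted p = 0.722).

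The weakest of the enriched transporters was SLC4A7, at chromosome 3, 27372721 to 27484420. The inputs held 39.6 and 41.4 CPM and the ER pulldowns 44.9 and 56.4, and its value of 0.31 ± 0.13 (adjusted p = 0.0298) was no longer called without either ER replicate (0.45 with adjusted p = 0.0544 without replicate 1, 0.18 with adjusted p = 0.393 without replicate 2). Its first hydrophobic window starts at residue 452 of 1259. SLC50A1 (a sugar carrier of the SWEET family), SLC39A4 (the intestinal zinc importer ZIP4) and SLC38A2 followed at 0.75, 0.79 and 0.88, and SLC30A6, the Golgi partner of SLC30A5, at 1.09. The gaps between neighbours in this order from SLC50A1 to SLC38A2 were smaller than their SE of 0.14, 0.11 and 0.12.

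**Figure D2:**
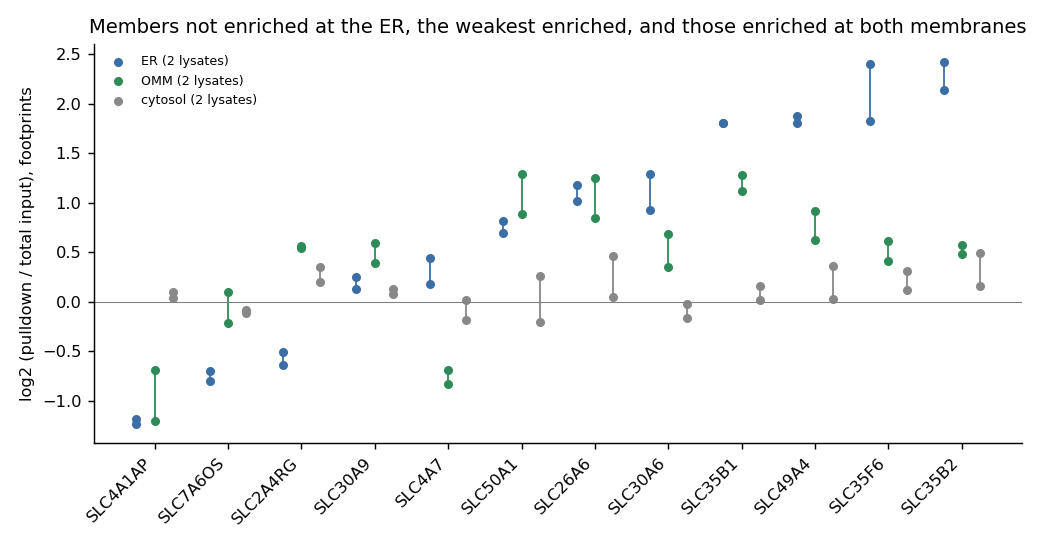
Log2 ratio of pulldown to total input (vertical axis) for the 4 members not enriched at the ER, the weakest enriched member SLC4A7 and the 7 members enriched at both membranes. Each point is 1 of 2 replicate lysates and lines join the lysates of a location (blue ER, green OMM, grey cytosol). SLC30A9 lay at 0.25 and 0.13 at the ER and 0.60 and 0.39 at the OMM.

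At the OMM the members as a group lay near the average gene. Of 81 tested, 9 were enriched and 28 depleted, against 17% and 46% of all 6728 genes tested there, and the members' median was -0.31 with -0.38 for all genes. In both lysates 17 members lay above 0 and 44 below. With TMM scaling the split became 19 enriched and 6 depleted, since the median of all genes moved to -0.06. Leaving out OMM replicate 1 left 4 enriched and 18 depleted, and leaving out replicate 2 left 5 and 9.

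The carriers of inorganic ions were lowest at the OMM, with 10 of 13 depleted and a median of -0.64. Among the 14 amino acid transporters 6 were depleted and none was enriched. The lowest OMM values were those of SLC30A1, the zinc exporter of the plasma membrane, at -1.07 and SLC4A1AP at -0.90. For SLC30A1 the OMM inputs held 53.4 and 37.6 CPM and the pulldowns 29.3 and 15.96, whereas the ER inputs of 30.9 and 39.5 rose to 129 and 132.98.

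The ER and OMM values were set against each other in a single fit. For 75 of 81 members the ER value was higher and for 2 it was lower, against 18.6% and 31.1% of all genes. The median difference was 2.12 for members and -0.28 for all genes. The 2 with the lower ER value were SLC2A4RG (-1.11, adjusted p = 0.000221) and SLC7A6OS (-0.70, adjusted p = 0.0126), the second of which was lost with TMM scaling, without either ER replicate and without OMM replicate 2; without pairing of pulldown and input neither was called. Against the cytosol, 76 of 81 members had the higher ER value and 3 the lower one (19.6% and 62.6% of all genes).

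Both membranes were enriched for 7 members, all of them transporters. Among the 77 ER-enriched members tested at the OMM this is 9.09%, and of all 1302 such genes 352 were; of all 6675 genes tested at both, 5.27% were enriched at both. SLC35B1, the ATP/ADP exchanger of the ER membrane, had the highest OMM value. Its OMM inputs of 48.2 and 43.1 CPM rose to 104.3 and 104.7, a value of 1.20 ± 0.14 (adjusted p = 9.40e-07), while at the ER 41.9 and 42.9 rose to 147 and 149, a value of 1.804 ± 0.11. The ER value exceeded the OMM value by 0.60 (adjusted p = 0.00856). The paper's cutoff for localized translation at mitochondria was a higher log2 value than the OMM value of SLC35B1, so no member reached it.

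SLC50A1 and SLC26A6, an exchanger of chloride, oxalate and bicarbonate, had similar values at both membranes. For SLC50A1 the OMM inputs held 35.03 and 32.9 CPM and the pulldowns 85.4 and 60.5, a value of 1.07 ± 0.17 (adjusted p = 4.89e-05), against 0.75 ± 0.14 at the ER (adjusted p of the difference 0.245). For SLC26A6 the OMM inputs held 24.99 and 15.7 and the pulldowns 44.6 and 37.4, a value of 1.06 ± 0.20 (adjusted p = 0.000197), against 1.11 ± 0.15 at the ER (adjusted p of the difference 0.899). In both genes every pulldown lay above every input at both membranes.

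The remaining 4 had lower OMM values. SLC49A4, a lysosomal carrier, had 0.74 ± 0.22 (adjusted p = 0.00780), SLC30A6 had 0.55 ± 0.17 (adjusted p = 0.00953), SLC35F6 had 0.51 ± 0.19 (adjusted p = 0.0227) and SLC35B2 had 0.51 ± 0.19 (adjusted p = 0.0274). SLC35F6 shares part of its locus on the same strand with CENPA, which encodes the centromeric histone. In each of these 4 the ER value was the higher one, by 0.54 in SLC30A6 (adjusted p = 0.0411) and by up to 1.79 in SLC35B2.

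Of these 7, SLC26A6, SLC35B1 and SLC50A1 kept both calls whichever OMM replicate was left out. Without pairing of pulldown and input only SLC26A6 and SLC35B1 kept them, and with TMM scaling 18 members were enriched at both, the 7 included, among 937 of all 6675 genes. Set against the cytosol bait, the OMM value was higher for 4 of 74 members, namely SLC35B1, SLC50A1, SLC26A6 and SLC30A6, and lower for 14 (16.6% and 39.7% of all genes); with TMM scaling the split was 11 and 1.

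**Figure D3:**
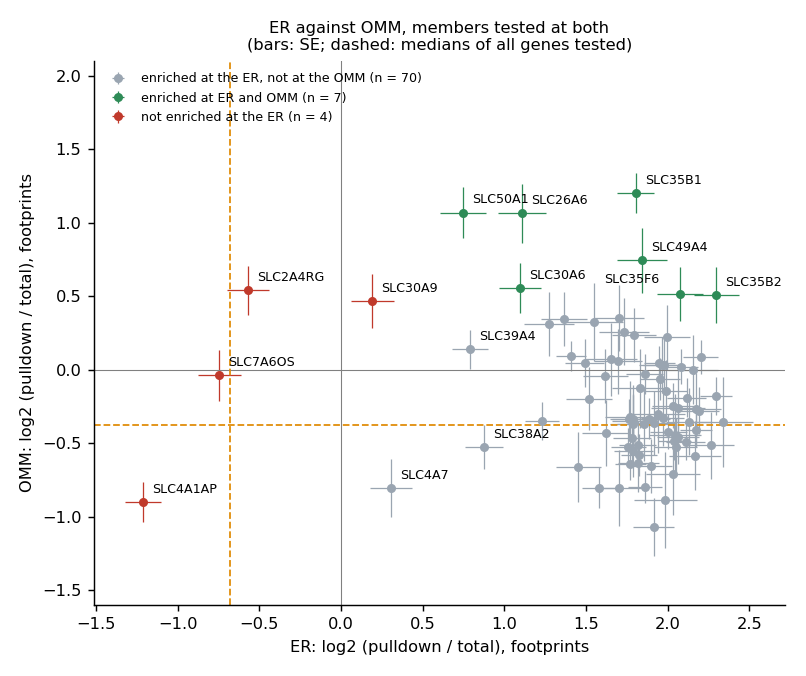
ER enrichment (horizontal) against OMM enrichment (vertical), both as the fitted log2 ratio of pulldown to total input, for the 81 members tested at both. Bars are SE and dashed lines are the medians of all genes tested. The 70 members enriched at the ER alone form a cloud to the right, the 7 enriched at both lie above it, and the 4 not enriched at the ER lie to the left.

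A property of the counting runs beside these calls. The length behind each deposited RPKM gives the number of coding positions that were counted, and for many genes it is shorter than the coding sequence of the main protein; positions that are coding in 1 annotated transcript but untranslated in another were apparently left out, since a length rebuilt that way from the annotation came within 10% of the authors' length for 82 of 93 members. The counted length was 14.7% to 116% of the main coding sequence, with a median of 91.9%. The 7 members enriched at both membranes had 14.7% to 30.5% counted, SLC30A9 21.1% and SLC38A2 30.3%.

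For SLC30A9, 334 of the counted 360 positions rebuilt into the main protein, within residues 1 to 112 and so before the first hydrophobic window at residue 238, and no position of the main protein after that window was counted. SLC50A1 was measured over 130 positions. Of the positions counted in the main protein of SLC4A7, 28.01% lay after its first window. SLC35B2 and SLC39A10 were also counted only before the first window of the main protein, and had ER values of 2.30 each. Over the transporters rebuilt within 10%, those with less than 50% of counted positions after the first window numbered 8, with a median ER value of 1.17 and 7 enriched, and the others numbered 71, with a median of 1.84 and 71 enriched.

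The share counted went with the OMM footprint values too. The 17 transporters with less than 50% counted had an OMM median of 0.34, with 8 enriched and 2 depleted, and the other 61 tested had -0.35, with 0 enriched and 25 depleted. Pearson's r between the share counted and the OMM value was -0.54 and Spearman's rho -0.35 over 78 transporters, and for the ER value 0.36 and 0.19 over 90. In the RNA-seq, which counts the whole mRNA, 4 of the same 17 were enriched and 7 depleted (median -0.15), and 6 of the other 73 were enriched and 46 depleted (median -0.42). The part of the counted positions in the calls at both membranes and in the call for SLC30A9 was not tested.

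**Figure D4:**
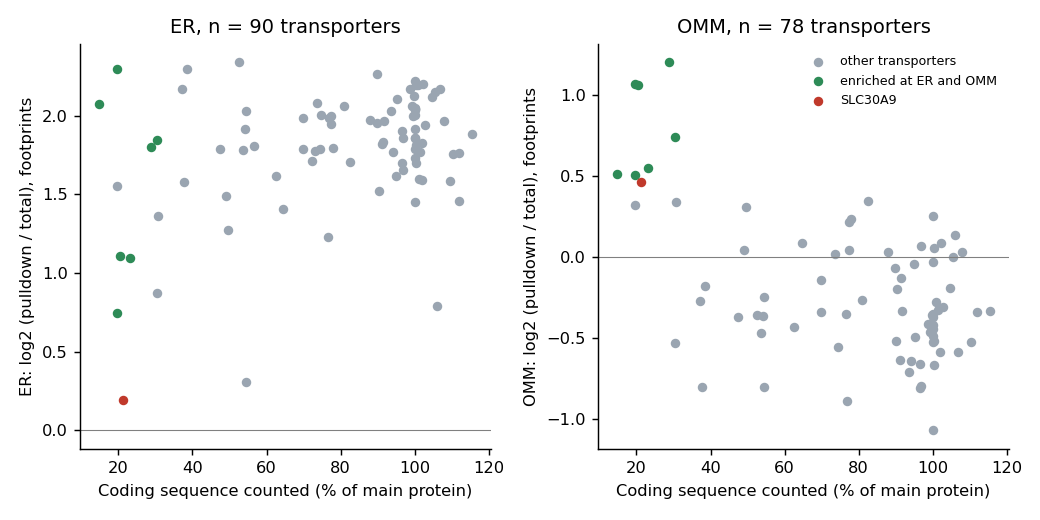
Percent of the main protein's coding sequence that was counted (horizontal) against the fitted log2 ratio of pulldown to total input at the ER (left, 90 transporters) and OMM (right, 78 transporters). Each point is 1 gene, green marks the 7 enriched at both membranes and red marks SLC30A9. The green and red points all lie at 30.5% or less.

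The cytosol bait gave small values. Of 81 members 1 was enriched and 2 were depleted (2.02% and 5.96% of 7162 genes), and the median was -0.06 with 0.02 for all genes. SLC29A2, a nucleoside transporter, had 0.57 (adjusted p = 0.0293), SLC16A1 had -0.57 (adjusted p = 0.00145) and SLC30A5 had -0.61 (adjusted p = 0.0340). The members' median was 0.04 in replicate 1 and -0.21 in replicate 2, and leaving out replicate 1 raised the number depleted to 13. On the scale of all mapped reads, chosen after seeing the data, 19 members were enriched and 1 depleted, among 2381 and 253 of the 7162 genes.

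RNA-seq with the OMM bait measured the whole mRNA that came down with tagged ribosomes. In WT, 11 of 93 members were enriched and 54 depleted, against 20.2% and 45.6% of 13856 genes, with a median of -0.34 for members and -0.28 for all genes. With TMM scaling the split was 19 and 29. Without WT replicate 1 there were 4 enriched members and without replicate 2 there were 5. The carriers of ions and of amino acids had no enriched member, with 11 of 16 depleted in each class.

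The highest WT mRNA values were those of SLC35B1 at 1.00, SLC50A1 at 0.89 and SLC39A4 at 0.73, with SLC35B2 also at 0.73. For SLC35B1 the inputs held 48.2 and 44.1 CPM and the pulldowns 97.7 and 86.8. SLC2A4RG had 0.62, and SLC30A9, at 177 and 179 in the inputs and 224 and 231 in the pulldowns, had 0.35. The lowest were SLC7A11 (the cystine/glutamate exchanger) at -1.34, SLC44A5 (a choline transporter-like protein) at -1.34 and SLC26A2 (a sulfate carrier) at -1.22.

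The 2 assays shared 5 of their OMM-enriched members, SLC2A4RG, SLC30A9, SLC35B1, SLC35B2 and SLC50A1, which are 55.6% of the 9 from footprints and 50% of the 10 from mRNA among members tested in both. Over all genes the shared share was 85.9% of those from footprints and 57.4% of those from mRNA. Among the 7 members enriched at both membranes by footprints, SLC30A6 was depleted at the OMM by mRNA (-0.62, adjusted p = 0.000467), as was SLC49A4 (-0.32, adjusted p = 0.0388), while SLC26A6 had -0.12 (adjusted p = 0.338) and SLC35F6 had -0.06 (adjusted p = 0.653). Across 81 members footprint and mRNA values had Pearson's r = 0.62 and Spearman's rho = 0.59, as a description across genes.

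Without CHX, in a single pair of libraries labelled so and given a shorter light and biotin pulse, the members' median was -0.26 and 34 of 93 lay above 0. For all genes it was -0.11 with 6147 of 13856 above 0. There is no replicate of this condition and none of these differences was tested.

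AKAP1 is an RNA-binding anchor protein of the OMM, and the series asked what its loss does to mRNAs there. The members' OMM enrichment shifted more often upward in AKAP1 knockout cells: relative to WT it was higher for 14 of 93 and lower for 3, against 6.52% and 7.96% of all genes. The median difference was 0.29 for members and 0.19 for all genes. Other multi-span genes also shifted more often upward. Of the 685 other genes with 4 or more hydrophobic windows, 9.93% were higher and 1.31% lower, with a median of 0.25. With TMM scaling, which brings the median of all genes to 0.01, 4 members were higher and 4 lower, among 285 and 1424 of all genes. With any WT or AKAP1 knockout replicate left out, 1 or 2 were higher and 0 lower, and without pairing only SLC30A9 was. With either LARP4 knockout replicate left out, which changes only the shared estimate of spread, 51 members were higher, among 4546 or 4524 of all genes, so the count rests heavily on that estimate.

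SLC30A9 had the largest difference. Its WT values were 0.34 and 0.37 and its AKAP1 knockout values 1.28 and 1.49, from inputs of 133.3 and 160.6 CPM and pulldowns of 324 and 450. The difference of 1.03 ± 0.13 (adjusted p = 0.00145) was called in every alternative run, with values of 0.86 to 1.13. In LARP4 knockout cells the same gene had 0.36 and 0.25, close to WT, and without CHX it had -0.30.

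SLC30A1 rose by 0.80 (adjusted p = 0.00786), from -0.94 and -0.93 in WT to 0.02 and -0.27, which leaves its mRNA near its input level. SLC39A10 rose by 0.72 (adjusted p = 0.00689) and SLC19A2, a thiamine carrier, by 0.70 (adjusted p = 0.0122). The calls of SLC39A10 and SLC19A2 were lost without any one WT or AKAP1 knockout replicate and without pairing, and that of SLC30A1 held there only without AKAP1 knockout replicate 2. SLC4A4, a sodium bicarbonate cotransporter, rose by 0.58 (adjusted p = 0.0484), a call lost with TMM scaling, with DESeq2, with a minimum of 10, without pairing and without any one WT or AKAP1 knockout replicate. By class, 5 of 17 metal carriers and 5 of 16 ion carriers were higher; with TMM scaling or DESeq2 no ion carrier was.

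The 3 members that fell were among those enriched in WT. SLC50A1 went from 0.93 and 0.85 in WT to 0.21 and 0.27 in the knockout, a difference of -0.65 (adjusted p = 0.0171). SLC2A4RG went from 0.56 and 0.68 to 0.04 and 0.01, a difference of -0.60 (adjusted p = 0.0303), and SLC35B1 from 1.02 and 0.98 to 0.38 and 0.44, a difference of -0.58 (adjusted p = 0.0382). All 3 were also lower with TMM scaling and with DESeq2, and none was called once a WT or AKAP1 knockout replicate was left out. In these genes the WT and knockout values did not overlap.

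**Figure D5:**
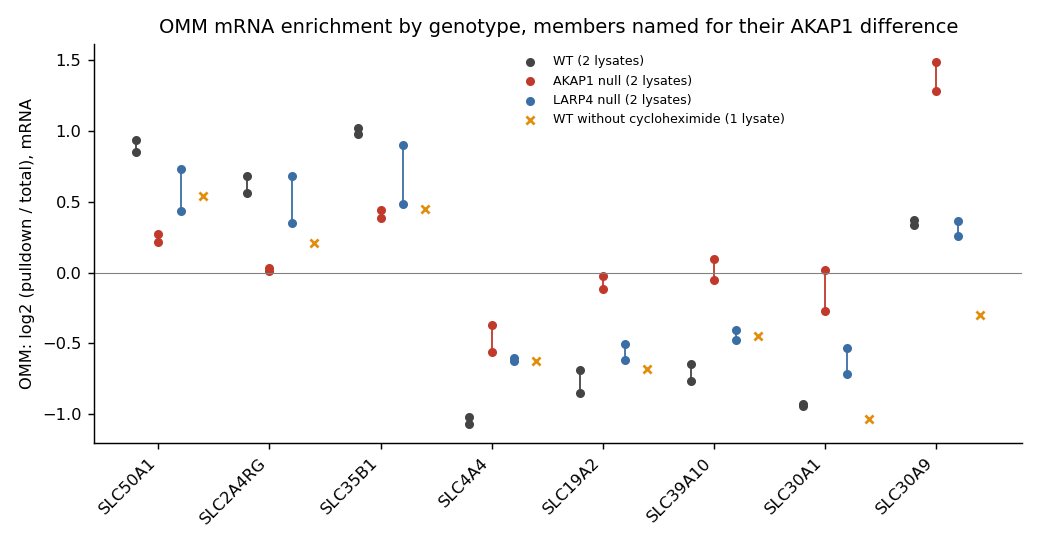
OMM enrichment of mRNA, as the log2 ratio of pulldown to total input (vertical axis), for the 8 members named for their difference between AKAP1 knockout and WT. Each dot is 1 of 2 replicate lysates per genotype (black WT, red AKAP1 knockout, blue LARP4 knockout), and crosses are the single lysate without CHX. SLC30A9 rose to 1.28 and 1.49, while SLC50A1, SLC2A4RG and SLC35B1 lay lower in the knockout than in WT.

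LARP4, an RNA-binding protein that binds poly(A) tails, gave no called difference in OMM enrichment among the members by edgeR or DESeq2. Among all genes edgeR called 0%, whereas DESeq2 called 2 higher and 454 lower. At an unadjusted p below 0.05 edgeR had 6 members higher and 1 lower, and the median difference was 0.14 for members and 0.17 for all genes. Without LARP4 knockout replicate 1, 10 members were higher and 2 lower, among 4521 and 1143 of all genes. By edgeR or DESeq2, no member's mRNA level in the total inputs was called different in AKAP1 or LARP4 knockout cells. Of all genes, edgeR called 0% of 13977 for AKAP1 and 0.0143% for LARP4. DESeq2 called 8 higher and 7 lower for AKAP1, and 14 and 14 for LARP4. At an unadjusted p below 0.05 edgeR had 3 members higher and 3 lower for AKAP1 and 1 and 6 for LARP4. The level of SLC30A1 differed by -0.67 in AKAP1 knockout cells (adjusted p = 0.973). The same edgeR test did not call AKAP1 itself in AKAP1 knockout cells (-2.15, adjusted p = 0.242), but called LARP4 in LARP4 knockout cells (-1.56, adjusted p = 0.0405). An uncalled member is therefore not shown to be unchanged.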

How the data were processed

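Members and lists were chosen with earlier results of these data known. For ribosome profiling the authors removed rRNA and tRNA reads with Bowtie, aligned to GRCh38 and, per the file headers, deposited estimated counts of footprints per coding sequence (not whole, since each footprint is spread over positions) and RPKM. For RNA-seq the authors deposited counts per gene. Gene names came from the GENCODE annotation on GRCh38, joined by Ensembl ID. Counts were rounded and tested with edgeR 4.0.16 (R 4.3.3) quasi-likelihood, two-sided, with Benjamini-Hochberg adjustment over all genes tested: a term per lysate, a pulldown effect per location or genotype, and library totals as scale. All 12 ribosome profiling libraries entered one fit and the 12 RNA-seq libraries with CHX another. Genes needed 64 footprints in both total inputs of a location, or a mean of 64 RNA-seq counts. mRNA levels in inputs were tested with TMM and no block. Values per lysate are log2 ratios of CPM with 0.5 added. Merged entries, 5.86% to 8.56% of coding footprints, were left out of tests.

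The lysate term pairs each pulldown with the input of the same number. After removing group means, same-numbered pulldown and input correlated at 0.584 to 0.883. The RNA-seq libraries of knockout lines and of WT cells with the control guide were taken as CHX-treated from the general protocol. Named were members not enriched at the ER, those enriched at both membranes, the extremes of each location, and the 5 largest calls in each direction for each knockout; some of their values are not reported here. SLC35 members in the lists follow family symbols, not measured substrates. 23 members overlap another coding gene in the annotation; RNA-seq strand settings were not given in the sources used here. Alternatives were TMM, DESeq2 1.42.0, minimums of 10 and 256, no block, leaving out each replicate and, added after seeing the data, the mapped-read scale and leaving out LARP4 replicates. Scripts were tested on simulated data.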

Additional observations from a re-analysis of the deposited data

Results flagged for a closer look

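A test of the difference between locations flagged the members as a group: ER enrichment was higher than OMM enrichment for 75 of 81 members and lower for 2. A test of the difference between genotypes flagged the OMM mRNA enrichment of 14 members as larger in AKAP1 knockout than in WT cells and of 3 as smaller, by edgeR's quasi-likelihood test. The members named for it had differences of 1.03 for SLC30A9, 0.80 for SLC30A1, 0.72 for SLC39A10, 0.70 for SLC19A2 and 0.58 for SLC4A4 upward, and of -0.65 for SLC50A1, -0.60 for SLC2A4RG and -0.58 for SLC35B1 downward, on the log2 scale with 2 lysates per genotype. The counts for AKAP1 change with the scale and with single replicates left out, as given under the processing.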

How the results depend on the processing

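Counts below are members enriched (or higher) and depleted (or lower). The count of ER-enriched members stayed within 1.5 times of 89 under TMM, DESeq2, no block and each replicate left out; 149 of 160 passed with a minimum of 10 and 34 of 35 with the highest minimum. With TMM the ER-depleted were 1, OMM 19 and 6, ER minus OMM lower 1, ER minus cytosol lower 1, OMM minus cytosol 11 and 1, WT mRNA 19 and 29, and AKAP1 minus WT 4 higher. DESeq2 gave 1, 19 and 4, 1, 1, 7 and 1, 19 and 30, and 5 in the same order, and 0 and 1 in the cytosol. The highest minimum gave 1 depleted at the ER, 0 and 15 at the OMM, 0 and 1 in the cytosol, 25 and 0 for ER minus OMM, 29 and 1 for ER minus cytosol, and 0 and 8 for OMM minus cytosol. A minimum of 10 gave 125 higher for ER minus OMM, 139 for ER minus cytosol, 7 for OMM minus cytosol, and 5 depleted in the cytosol. Without the replicate block there were 3 and 2 at the OMM and 0 and 0 in the cytosol. The same setting gave 56 and 0 for ER minus OMM, 62 and 1 for ER minus cytosol, and 1 and 0 for OMM minus cytosol. It gave 5 and 35 for WT mRNA, and 1 and 0 for AKAP1 minus WT. The block on input mRNA levels called 0 members. Among transporters alone 0 were depleted at the ER or lower in ER minus OMM or ER minus cytosol. The mapped-read scale, chosen after seeing the data, gave 19 and 1 in the cytosol. Leaving out single replicates gave 4 to 5 and 9 to 18 at the OMM, 1 to 2 and 1 to 13 in the cytosol, 73 to 79 and 1 to 2 for ER minus OMM, 3 to 7 and 3 to 26 for OMM minus cytosol, 4 to 5 and 34 to 42 for WT mRNA, 1 to 51 and 0 to 4 for AKAP1 minus WT (1 to 2 and 0 unless a LARP4 replicate, chosen after seeing the data, was the one left out), and 0 to 10 and 0 to 2 for LARP4 minus WT. SLC2A4RG reversed at the ER (0.080 by TMM, 0.041 by DESeq2), SLC46A1 in WT mRNA (0.048 and 0.039, from -0.25) and SLC7A6OS in ER minus cytosol (0.0037 by TMM). The cause was not tested. Of 2391 alternatives for named members, 2121 kept direction and side of the threshold, 199 lost the call, 66 gained one and 5 reversed. Depth limits the OMM most, where a pulldown held 1025114 footprints.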

Other observations

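SLC8B1, a sodium/calcium exchanger of the inner mitochondrial membrane outside the SLC25 family, fell below the footprint minimum of 64. It entered footprint tests only with the minimum of 10, and those results for it are not reported here. Its ER inputs held 29.6 and 33.7 footprints and its ER pulldowns 279 and 191, log2 ratios of 2.61 and 1.62 in the 2 lysates. Its OMM inputs held 37 and 35 footprints and the OMM pulldowns 0 and 8. SLC30A9, also known as a mitochondrial carrier, had the opposite order of ER and OMM values. The difference of SLC30A9 was not called by edgeR (adjusted p = 0.326), and that of SLC8B1 was not tested at the minimum of 64. NHERF1 and NHERF2, scaffold proteins whose former symbols began with SLC9A3R, are no members by their current symbols and had ER values of -0.90 and -0.33.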
